A study of Mus musculus with 16 samples.

Results

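Complement genes were followed in RNA-Seq of CD11b+ cells from the mouse brain: the C1q chains C1qa, C1qb, and C1qc, the components C3 and C4b, the anaphylatoxin receptors C3ar1 and C5ar1, and the integrin chains Itgam and Itgb2. They were chosen by name and make up 9 of the 24421 genes in the table of counts; all 9 passed the filter on low counts. The 3 C1q genes rose 1.85- to 2.46-fold in malnourished mice given fecal bacteria, against either control group (adjusted p of 0.00147 or less), beside 11.4% of all genes tested that were called higher against CON and 10.2% against MAL. The other 6 genes were not called in any comparison when libraries were scaled to all genes.

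Complement is a cascade of blood and tissue proteins that marks cells and debris for removal. C1q binds such targets and starts the classical pathway, in which C4 and then C3 are cleaved and C3 fragments are fixed to the target. The small fragments released, C3a and C5a, signal through the receptors encoded by C3ar1 and C5ar1, and phagocytes bind fixed C3 through complement receptor 3, the integrin heterodimer of CD11b (Itgam) and CD18 (Itgb2). In the brain, microglia are known as the main source of C1q, and the C1q and C3 pathway is known for tagging synapses that microglia engulf.

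The mice were C57BL/6J females placed on their diet at weaning for about a month. CON mice (n = 4) ate standard chow, MAL mice (n = 5) ate an isocaloric low-protein, low-fat diet, and MAL-BG mice (n = 7) ate the same low-protein, low-fat diet and were gavaged repeatedly with E. coli and Bacteroidales; CON and MAL mice were gavaged with PBS. None of these groups received the bacteria on standard chow, so MAL-BG against CON joins diet and bacteria, and MAL-BG against MAL is the comparison that differs by the bacteria. Cells were enriched from dissociated brain (cerebra in the methods, cortical tissue in the labels) with magnetic beads against CD11b, so Itgam encodes the protein used for the enrichment itself. The authors' model held a batch term, but the batch of each column is not given in the sources used here, so no batch was fitted, and batch and group cannot be told apart. Replicate numbers below are those of the columns of the count table, which were not matched to individual animals or to the letters in the sample names.

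CON libraries totalled 10312703 to 13461574 counts, MAL libraries 10864121 to 12819982, and MAL-BG libraries 14191791 to 18705202, so that every MAL-BG library was deeper than every other library. Levels are CPM, counts per 1000000 counts of the TMM-scaled library size. A gene was called when its adjusted p (edgeR quasi-likelihood test with Benjamini-Hochberg adjustment over 14565 genes) was under 0.05 and its log2 fold change was above 0.58 in size. Both MAL-BG comparisons use the same 7 MAL-BG libraries and are therefore not independent. Microglia markers were abundant in all groups, with a summed level over 12 genes of 18400 to 30100 CPM in CON, 19000 to 32500 in MAL, and 39700 to 55600 in MAL-BG, where 8 of the 12 were called higher in each comparison. Other cells were present too: choroid plexus epithelium markers summed to 10500 to 40700 CPM in CON, 4900 to 32000 in MAL, and 1460 to 12900 in MAL-BG. In bulk RNA, a change in the number of cells of a type and a change in RNA per cell cannot be told apart.

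The 3 C1q genes lie side by side on the minus strand of chromosome 4 (GRCm38.p6), as protein-coding genes with 3 exon blocks each: C1qb at chr4:136880129-136886187, C1qc at chr4:136889804-136893065, and C1qa at chr4:136895917-136898803. The start regions of C1qb and C1qc are shown, 250 bases before to 50 after the RefSeq start, on the minus strand, 5′ to 3′. Of the 9 genes, 6 had such an entry in the RefSeq table (GRCm38.p6). C1qa, which rose as well, had no entry and is therefore not shown. Capitals mark GAGGAA, the core that PU.1 and other ETS factors of myeloid cells bind, searched on both strands (TTCCTC on the opposite strand), with no overlap with another motif searched. C1qb is shown at chr4:136886151-136886450 and C1qc at chr4:136892865-136893164.
C1qb: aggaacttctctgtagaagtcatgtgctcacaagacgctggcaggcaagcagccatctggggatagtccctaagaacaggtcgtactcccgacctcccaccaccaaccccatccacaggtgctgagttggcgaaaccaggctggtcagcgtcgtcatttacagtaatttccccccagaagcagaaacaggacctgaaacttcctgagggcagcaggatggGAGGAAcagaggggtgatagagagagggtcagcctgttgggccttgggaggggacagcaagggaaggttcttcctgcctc
C1qc: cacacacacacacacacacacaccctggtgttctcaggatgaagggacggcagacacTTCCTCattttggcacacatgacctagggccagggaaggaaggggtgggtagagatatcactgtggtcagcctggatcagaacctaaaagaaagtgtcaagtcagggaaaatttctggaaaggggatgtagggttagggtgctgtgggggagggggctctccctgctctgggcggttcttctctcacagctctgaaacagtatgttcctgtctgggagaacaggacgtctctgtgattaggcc
Each holds 1 match, and the Itgam window at chr7:128062390-128062689 holds 3, while the windows of C3, C3ar1, and C5ar1 hold none. Of all 32851 RefSeq promoter windows of this length, 28.3% hold at least 1 match. An interferon regulatory factor element, present in 3.44% of windows, was in none of the 6, and the AP-1 element TGACTCA, present in 5.2%, was in the C3ar1 window alone.

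C1q genes were among the most abundant transcripts of these cells. By mean CPM over all libraries, C1qa ranked 11 of 14565 genes, C1qc 22, and C1qb 24; Itgam ranked 68, Itgb2 279, C3ar1 837, C5ar1 2155, C3 5418, and C4b 6424. Corrected for exon length (CPM per kilobase of merged exons), the order in CON was C1qa 2840 ± 843 (SD, n = 4), C1qb 2049 ± 445, C1qc 1164 ± 330, Itgam 210.2 ± 21.7, Itgb2 125 ± 21, C3ar1 47.9 ± 8.5, C5ar1 46.9 ± 15.5, C3 5.70 ± 2.92, and C4b 4.69 ± 4.01. The neighbours C1qa and C1qb, C3ar1 and C5ar1, and C3 and C4b overlapped between libraries on this scale. C1qc is placed below C1qb because its merged exons span 1.931 kb against 1.088 kb for C1qb; their CPM levels overlapped in every group.

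**Figure D1:**
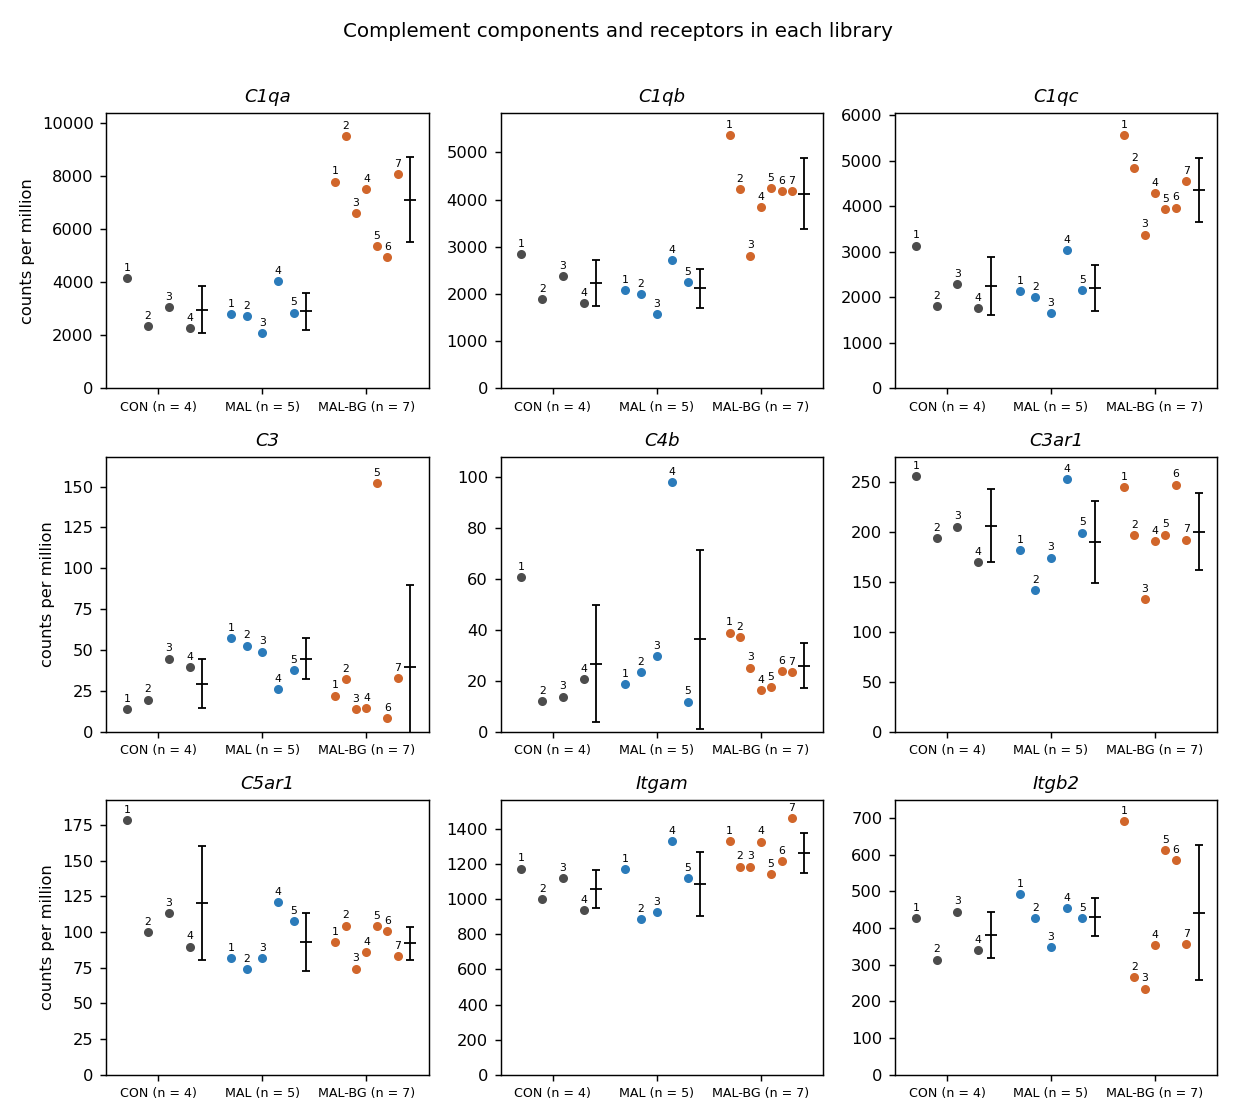
CPM (vertical axis, linear from 0) of each gene in each library, with CON in black, MAL in blue, and MAL-BG in orange; numbers are replicates, and bars are the mean and SD of the group, cut at 0 for C3. C1qa and C1qc in MAL-BG sit above every CON and MAL library, C3 has 1 high MAL-BG library at 152.2 CPM, and C4b is high in CON replicate 1 and MAL replicate 4.

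C1qa, which encodes the A chain of C1q, was measured at 4153, 2340, 3062, and 2260 CPM in the 4 CON libraries and at 2781, 2726, 2062, 4036, and 2847 CPM in the 5 MAL libraries. In the 7 MAL-BG libraries it ran from 4934 to 9489 CPM with a median of 7509. Every MAL-BG library exceeded every CON and MAL library, whose highest values were CON replicate 1 and MAL replicate 4. Such a separation was seen for 6.17% of all genes tested, C1qc among them, and the opposite one, all MAL-BG libraries lowest, for 6.36%, with none of the 9 genes among them. On the log2 scale MAL-BG exceeded CON by 1.27 ± 0.23 (SE; 2.40-fold, adjusted p = 5.1e-04) and MAL by 1.30 ± 0.22 (2.46-fold, adjusted p = 2.48e-04).

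C1qb, the B chain, was at 2847, 1894, 2379, and 1797 CPM in CON and at 2077, 1990, 1572, 2719, and 2242 CPM in MAL. The range in MAL-BG was 2810 to 5361 CPM with a median of 4184. The lowest, MAL-BG replicate 3, was just under CON replicate 1, so 6 of 7 MAL-BG libraries lay above the highest CON library, and all 7 lay above the highest MAL library. The rise in log2 C1qb was 0.89 ± 0.19 over CON (1.85-fold, adjusted p = 0.00147) and 0.96 ± 0.18 over MAL (1.94-fold, adjusted p = 5.13e-04).

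C1qc, the C chain, was at 3134, 1813, 2293, and 1754 CPM in CON and at 2131, 2012, 1658, 3029, and 2150 CPM in MAL. MAL-BG libraries ran from 3380 to 5560 CPM with a median of 4286, above every CON and MAL library. C1qc was thus 0.96 ± 0.20 higher than in CON on the log2 scale (1.94-fold, adjusted p = 0.00125) and 0.99 ± 0.19 higher than in MAL (1.99-fold, adjusted p = 5.9e-04).

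Thus 3 of the 9 genes were called higher and 0 lower in each MAL-BG comparison, beside 21.7% of all genes called lower against CON and 20.2% against MAL. The median log2 fold change of the 9 genes was 0.26 against CON and 0.08 against MAL, beside medians of -0.04 and -0.03 over all genes. The 3 C1q genes together took 0.765% ± 0.166 (SD, n = 4) of all counts of CON libraries, 0.747% ± 0.136 (n = 5) of MAL, and 1.47% ± 0.18 (n = 7) of MAL-BG, with ranges of 0.632% to 0.98%, 0.566% to 0.947%, and 1.27% to 1.74%.

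**Figure D2:**
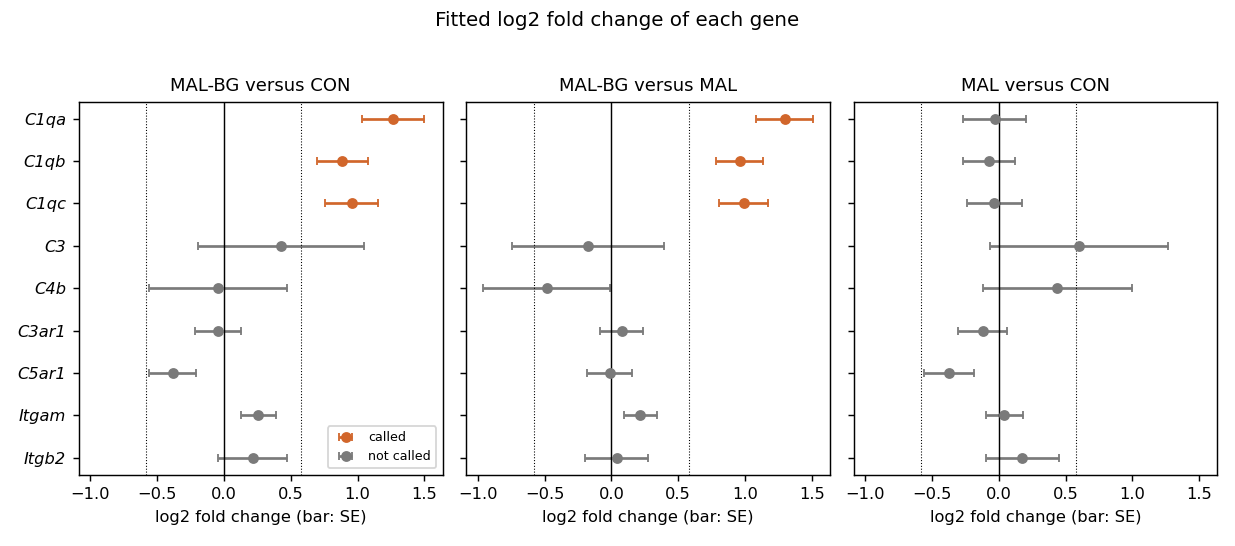
Fitted log2 fold change of each gene with its SE in the 3 comparisons (horizontal axis); dotted lines mark 0.58 in either direction, and orange marks called genes. C1qa, C1qb, and C1qc lie between 0.89 and 1.30 in both MAL-BG comparisons, and none of the 9 genes is called between MAL and CON.

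The call of the C1q genes depended on what the counts were scaled to. Relative to the summed counts of the 12 microglia markers, C1qb stood at 95.8 ± 1.71 counts per 1000 marker counts in CON, 85.9 ± 6.23 for MAL, and 86.2 ± 11.2 for MAL-BG, and C1qc at 95.7 ± 6.1, 88.6 ± 4.99, and 91.2 ± 7.55. The MAL-BG ranges overlapped those of CON and MAL for both genes, while the CON libraries of C1qb (94.1 to 97.9) lay just above the MAL libraries (78.6 to 93.9). How many of all genes separated MAL from CON in this way was not tested. In the edgeR fit on this scale, C1qb differed by -0.157 (log2) between MAL and CON and was not called, nor was any other gene. C1qa stood at 125 ± 9.2 in CON and 116 ± 9 in MAL, beside 149 ± 29.6 in MAL-BG, with MAL-BG libraries from 101 to 196. Scaled to these markers, C1qa differed from CON by 0.25 on the log2 scale (adjusted p = 0.102), C1qb by -0.15 (adjusted p = 0.181), and C1qc by -0.07 (adjusted p = 0.476) in the edgeR fit, and none of the 3 was called in either comparison. C1qa against MAL was at 0.36 (adjusted p = 0.0171), which passed on p and fell short of the fold threshold. That scaling moved the median over all genes to -1.10 against CON and -0.998 against MAL, and all 3 C1q genes stood above these medians. Of all 14565 genes, 41 were called higher against CON on this scale and 40 against MAL, so few genes of any kind were called higher. C1q rose alongside microglia markers such as Tmem119, a membrane protein of microglia, which went from a mean of 1250 CPM in CON to 2660 CPM in MAL-BG.

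The 3 C1q chains are assembled in equal numbers in the C1q protein, and their counts kept to narrow ratios in CON and MAL libraries. The ratio of C1qa to C1qb counts was 1.24 to 1.46 in CON and 1.27 to 1.48 in MAL. In MAL-BG it was 1.45, 1.26, and 1.18 in replicates 1, 5, and 6, and 2.25, 2.35, 1.95, and 1.92 in replicates 2, 3, 4, and 7. The first 3 of these libraries lay near the CON and MAL values and the other 4 lay above every one of them.

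C1qa to C1qc showed the same separation of libraries, at 1.29 to 1.34 in CON, 1.24 to 1.35 in MAL, 1.40, 1.36, and 1.24 in MAL-BG replicates 1, 5, and 6, and 1.96, 1.95, 1.75, and 1.77 in MAL-BG replicates 2, 3, 4, and 7. C1qc to C1qb stayed closer to even, at 0.957 to 1.10 in CON, 0.959 to 1.11 in MAL, and 0.928 to 1.20 in MAL-BG. The difference in mean log2 ratio of C1qa to C1qc was 0.30 between MAL-BG and CON (exact permutation test, two-sided, p = 0.0667) and 0.29 between MAL-BG and MAL (p = 0.0455). Neither passed over the 18 ratio tests (adjusted p = 0.409), and none of the 18 did (6 pairs in 3 comparisons). What the 4 libraries share was not tested: the sample names carry the letters A and B, but these were not matched to the columns of the table.

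**Figure D3:**
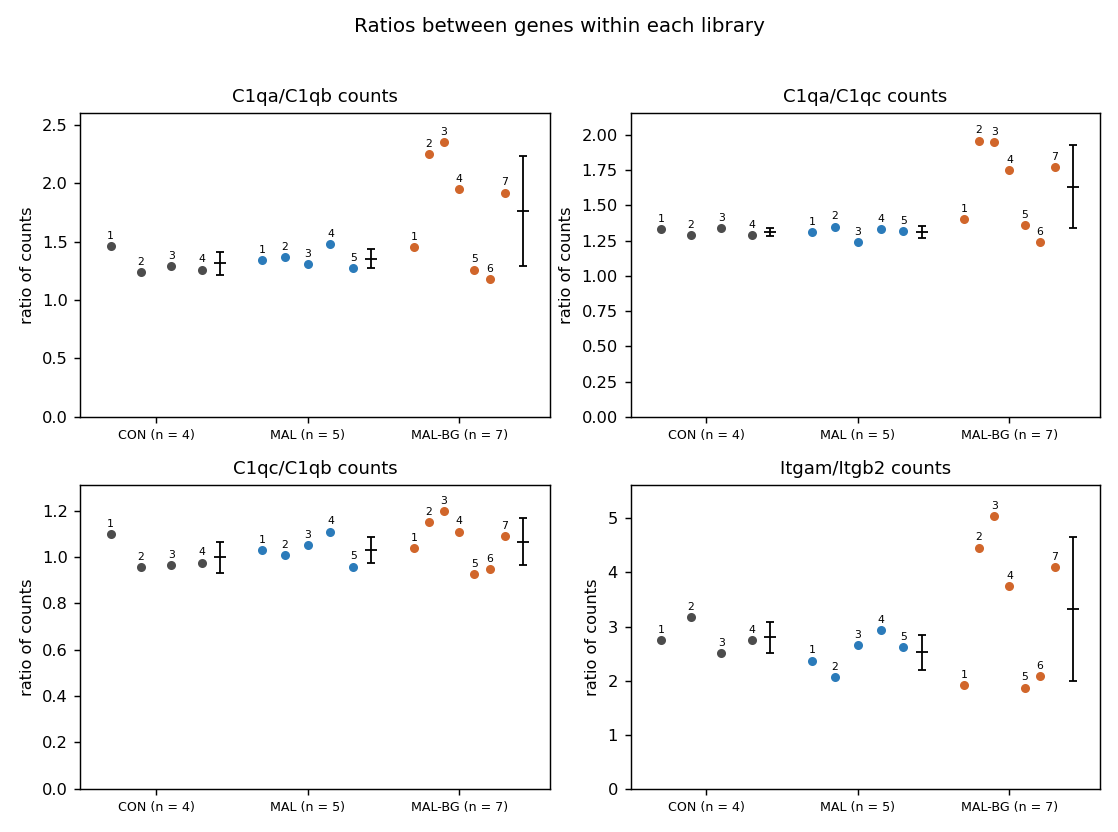
Ratio of the counts of 2 genes within each library (vertical axis, linear from 0), with numbers as replicates and bars as the mean and SD of the group. MAL-BG replicates 2, 3, 4, and 7 lie above every CON and MAL library for C1qa/C1qb (1.92 to 2.35), C1qa/C1qc (1.75 to 1.96), and Itgam/Itgb2 (3.75 to 5.04).

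The genes whose levels followed C1q most closely over the 16 libraries are a description of likeness and carry no test. By the root mean square difference of centred log2 CPM, the nearest to C1qa were Grn (0.0949), the lysosomal protein progranulin, Trem2 (0.101), a microglial lipid receptor, and Orai1 (0.109), a calcium channel. Abhd12, a lipase of lysophospholipids, was nearest to C1qb (0.0792) and C1qc (0.097). C1qb and C1qc were 0.109 apart, whereas C1qa was 0.312 from C1qb and 0.222 from C1qc. The median distance over all genes was 0.831 for C1qa, 0.657 for C1qb, and 0.689 for C1qc.

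C3 and C4b, the components cleaved downstream of C1q, were far less abundant and varied widely between libraries. C3 (chr17:57203970-57228136), whose fragments opsonize targets, was at 13.7, 19.5, 44.6, and 39.4 CPM in CON and at 57.1, 52.6, 49.0, 26.1, and 37.5 CPM in MAL. C3 in MAL-BG spanned 8.44 to 152.2 CPM with a median of 22.0. The highest, MAL-BG replicate 5, stood far above the next at 32.6 CPM, and the groups otherwise overlapped. Fitted log2 fold changes of C3 were 0.43 ± 0.62 (CON, adjusted p = 0.6) and -0.17 ± 0.57 (MAL, adjusted p = 0.825).

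MAL-BG replicate 5 decided the sign of the C3 difference to CON and the call against MAL. Without it, C3 differed by -0.54 from CON on the log2 scale (adjusted p = 0.259) and by -1.13 from MAL (adjusted p = 0.0178), the latter called lower. The same library held 13570 CPM of neutrophil markers summed over 10 genes, against 484 to 1225 CPM in CON, 521 to 1091 in MAL, and 590 to 3320 in the other MAL-BG libraries, and 1086 CPM of monocyte markers against at most 461 elsewhere. Of the 7 monocyte markers summed, 0 were called higher in either MAL-BG comparison, while 2 were called lower against CON and 4 against MAL. Chil3, among these markers, was at 130 ± 236 CPM (SD) in MAL-BG. The part of neutrophils or monocytes in the C3 level was not tested. The genes nearest to C3 across libraries were Gda (0.367), Gapt (0.401), and Clec4e (0.425), all farther than the genes nearest to any other of the 9.

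C4b (chr17:34728380-34743882), the classical pathway component cleaved by C1s, was at 60.5, 12.1, 13.7, and 20.5 CPM in CON and at 18.6, 23.2, 29.7, 98.0, and 11.7 CPM in MAL. C4b in MAL-BG spanned 16.3 to 38.9 CPM with a median of 23.6. CON replicate 1 and MAL replicate 4 stood above all other libraries, and the groups overlapped. For C4b, the fit gave a log2 fold change of -0.05 ± 0.52 to CON (adjusted p = 0.949) and -0.48 ± 0.48 to MAL (adjusted p = 0.424).

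These 2 libraries also had the highest border macrophage markers, summed over 6 genes, at 525 and 629 CPM against 137 to 275 CPM in the others. Ms4a7 (0.308), C2 (0.314), and Mrc1 (0.339) were nearest to C4b across libraries; Ms4a7 and Mrc1 are in that marker list, and C2 is the protease that acts with C4b. The part of border macrophages in the C4b level was not tested. Without CON replicate 1, the C4b log2 fold change against CON was 0.73 (adjusted p = 0.253), and without MAL replicate 4 that against MAL was 0.31. With both of them and MAL-BG replicate 5 left out together, a choice made after the values were seen, C4b was 0.90 above CON (log2, adjusted p = 0.0264), which was called, and C3 was -0.69 against CON (adjusted p = 0.115) and -1.22 against MAL (adjusted p = 0.00624), the latter called. C4b shares 40.5% of its 42-base windows with C4a, which had few counts (65 over all CON, 66 over all MAL, and 99 over all MAL-BG libraries), so reads from the 2 genes may be split or dropped.

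The anaphylatoxin receptors showed no called difference. C3ar1 (chr6:122847138-122856161), the receptor for C3a, was at 256, 193.9, 205.1, and 169.3 CPM in CON and at 181.8, 141.2, 174.1, 252.5, and 199.1 CPM in MAL. The 7 MAL-BG values lay between 132.2 and 247.3 CPM with a median of 196.5, and the 3 groups overlapped. In log2 terms C3ar1 differed by -0.04 ± 0.17 from CON (adjusted p = 0.859) and by 0.08 ± 0.16 from MAL (adjusted p = 0.718).

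C5ar1 (chr7:16246743-16259540), the receptor for C5a, was at 178.3, 100.3, 113.6, and 89.9 CPM in CON and at 81.6, 73.9, 81.6, 121.2, and 107.5 CPM in MAL. MAL-BG libraries ran from 74.4 to 104.6 CPM with a median of 92.9. All groups overlapped, with CON replicate 1 the highest library. In log2 terms C5ar1 differed by -0.38 ± 0.18 from CON (adjusted p = 0.084) and by -0.01 ± 0.17 from MAL (adjusted p = 0.957). C3ar1 counts exceeded C5ar1 counts in all 16 libraries, by a ratio of 1.44 to 1.93 in CON, 1.85 to 2.23 in MAL, and 1.78 to 2.64 in MAL-BG, and the difference in mean log2 ratio between MAL-BG and CON was 0.29 (exact permutation test, two-sided, p = 0.0909, adjusted p = 0.409).

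Itgam (chr7:128062640-128118491, plus strand), which encodes CD11b, varied least of the 9 genes over the 16 libraries, with a root mean square deviation of log2 CPM of 0.199. It was at 1173, 998, 1118, and 934.8 CPM in CON and at 1169, 885.1, 926.6, 1331, and 1119 CPM in MAL. MAL-BG libraries ran from 1142 to 1461 CPM with a median of 1215, with 6 of 7 above the highest CON library and 1 above the highest MAL library. Its log2 level differed by 0.26 ± 0.13 from CON (adjusted p = 0.112) and by 0.22 ± 0.12 from MAL (adjusted p = 0.149). Itgam shares 3450 exon bases on the same strand with Gm49368, a gene annotated in GENCODE vM21 that had no row in the table. Genes with 0 counts in every library, such as Mbl1, did have rows. The missing row therefore does not show that reads of the shared exons were left out of the Itgam counts, and this was not tested.

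Itgb2 (chr10:77530252-77565708, plus strand), which encodes CD18, was at 426.4, 314.3, 444.8, and 339.9 CPM in CON and at 493.3, 427.4, 349.3, 454.9, and 427.5 CPM in MAL. The MAL-BG libraries split around these values, with 691.4, 612.4, and 584.9 CPM in replicates 1, 5, and 6 and 265.5, 235.2, 353.5, and 355.8 CPM in replicates 2, 3, 4, and 7. Replicates 1, 5, and 6 were above every other library and replicates 2 and 3 below every other library. With such spread, the log2 fold change of Itgb2 was 0.22 ± 0.26 to CON (adjusted p = 0.515) and 0.04 ± 0.24 to MAL (adjusted p = 0.903). The SD among MAL-BG libraries was 183 CPM, beside 64 in CON and 52.8 in MAL.

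CD11b and CD18 pair to form complement receptor 3, and the ratio of Itgam to Itgb2 counts was 2.51 to 3.18 in CON and 2.07 to 2.93 in MAL. In MAL-BG it was 1.92, 1.87, and 2.08 in replicates 1, 5, and 6 and 4.46, 5.04, 3.75, and 4.10 in replicates 2, 3, 4, and 7. These are the same 3 and 4 libraries that the C1qa ratios set apart. The difference in mean log2 ratio was 0.14 between MAL-BG and CON (exact permutation test, two-sided, p = 0.673) and 0.29 between MAL-BG and MAL (p = 0.331). The genes nearest to Itgb2 were Man2b1 (0.151), a lysosomal mannosidase, Tyrobp (0.161), the adaptor of TREM2, and Plcg2 (0.161), a phospholipase downstream of it.

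Relative to microglia markers, the receptors fell in MAL-BG, as did most genes. On this scale 11238 of 14565 genes were called lower against CON and 10617 against MAL. C3ar1 stood at 8.92 ± 0.61 counts per 1000 marker counts in CON and 7.72 ± 1.09 in MAL, beside 4.19 ± 0.63 in MAL-BG, and the MAL-BG range of 3.33 to 5.08 did not reach the lowest CON (8.32) or MAL (6.44) library. C5ar1 stood at 5.11 ± 0.57, 3.80 ± 0.60, and 1.96 ± 0.34, and Itgam at 46.2 ± 5.4, 44.2 ± 3.6, and 26.6 ± 2.2, also without overlap. Itgb2 stood at 16.6 ± 2.05, 17.7 ± 2.13, and 9.28 ± 3.79, where MAL-BG replicate 5 alone, at 15, lay within the range of the other groups.

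On this scale 5 of the 9 genes were called lower in each MAL-BG comparison (C4b, C3ar1, C5ar1, Itgam, and Itgb2) and 0 higher. C3ar1 stood -1.09 from CON on the log2 scale (edgeR adjusted p = 3.36e-06), C5ar1 -1.38 (adjusted p = 1.16e-06), Itgam -0.80 (adjusted p = 6.23e-06), and Itgb2 -0.84 (adjusted p = 0.00371). The median of all genes moved by -1.10 against CON on this scale, with 11238 of 14565 genes called lower, so values near it lie close to the middle of all genes. Against MAL the median was -0.998, with 10617 genes called lower. Against CON, Itgam and Itgb2 fell less than the median gene, C3ar1 by about as much, and C5ar1 by more. The share of all genes without overlap on this scale was not tested.

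**Figure D4:**
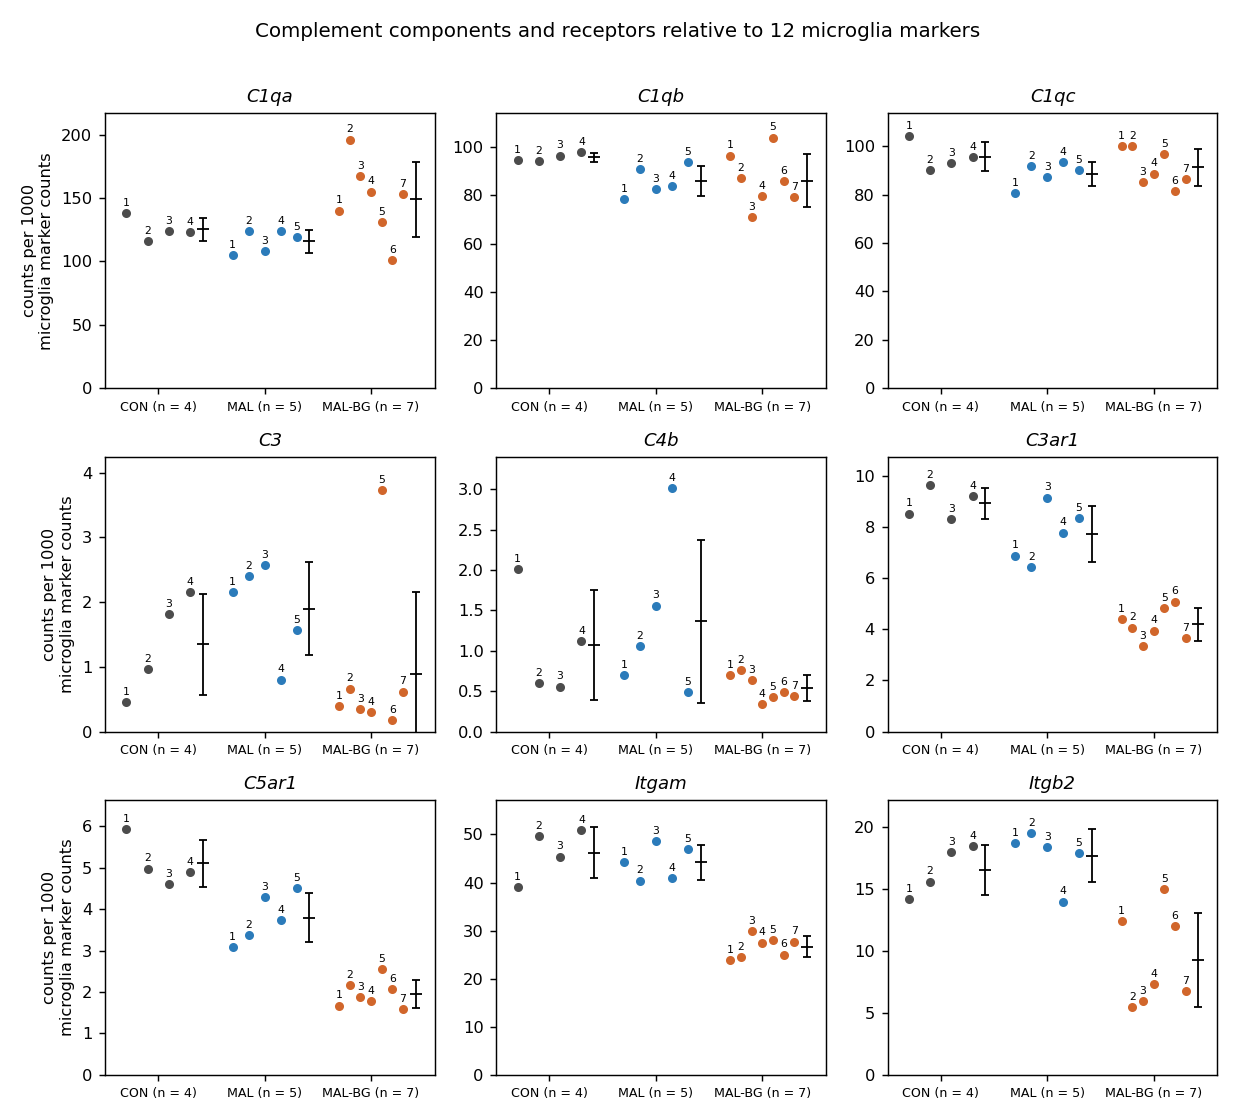
Counts of each gene per 1000 counts of the 12 microglia markers in each library (vertical axis, linear from 0), with numbers as replicates and bars as the mean and SD of the group, cut at 0 for C3. C3ar1, C5ar1, and Itgam in MAL-BG lie below every CON and MAL library, whereas C1qb and C1qc in MAL-BG overlap both other groups. On this scale 11238 of 14565 genes were called lower against CON, and the share of all genes without overlap was not tested.

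Between MAL and CON, which differ by the diet, none of the 9 genes was called, and none of the 14565 genes tested was (0% higher and 0% lower). Without adjustment, 212 genes had p under 0.05 in the edgeR fit and 241 by DESeq2, which also called 0. The log2 fold changes of C1qa, C1qb, and C1qc were -0.03 ± 0.24, -0.07 ± 0.20, and -0.03 ± 0.21 (adjusted p = 0.999 for each), and every MAL library lay below the highest CON library for these 3 genes. The largest differences were those of C3 at 0.60 ± 0.67, with 3 of 5 MAL libraries above the highest CON library, C4b at 0.44 ± 0.56, and C5ar1 at -0.37 ± 0.19. None of these exceeded the spread between libraries.

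Of a list of 57 complement genes, 38 passed the filter, and the 29 of them outside the 9 genes gave 3 called higher and 6 lower against CON, and 4 higher and 6 lower against MAL. These shares are near those over all genes (11.4% higher and 21.7% lower against CON, 10.2% and 20.2% against MAL). Over these 29 genes the median was -0.05 (log2) against CON and -0.20 against MAL. C1ra, the protease C1r that C1q activates, was called higher at 3.89 ± 1.07 CPM in CON and 4.01 ± 1.22 in MAL, beside 6.37 ± 1.38 in MAL-BG (log2 fold change 0.71, adjusted p = 0.0385, and 0.66, adjusted p = 0.0369). Its call against CON was lost when any of CON replicates 1, 2, and 4, MAL replicate 5, or MAL-BG replicate 3 was left out (adjusted p = 0.112, 0.111, 0.0646, 0.051, and 0.0718), and its call against MAL without MAL replicate 1, 4, or 5 or MAL-BG replicate 3 (0.0955, 0.0556, 0.0663, and 0.0724). Offsets for length and GC content ended both C1ra calls (0.55, adjusted p = 0.0944, and 0.52, adjusted p = 0.0947), and a minimum of 50 counts (adjusted p = 0.0527) and thinning to equal depth (adjusted p = 0.0566) ended that against CON.

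Fcnb, which encodes a ficolin of the lectin pathway made by myeloid cells, was called higher (log2 fold change 4.89 against CON, adjusted p = 0.0389, and 5.58 against MAL, adjusted p = 0.0166), but 1518 of its 1617 MAL-BG counts were in replicate 5. Without that library, Fcnb was at 1.39 against CON (adjusted p = 0.319) and 2.11 against MAL (adjusted p = 0.122), and without CON replicate 1, 3, or 4 it was not called against CON (adjusted p = 0.0804, 0.0959, and 0.0941). The DESeq2 test on all libraries gave Fcnb 1.29 against CON (adjusted p = 0.362) and 2.08 against MAL (adjusted p = 0.104), and called neither. In an edgeR fit of MAL-BG and CON libraries alone it was not called either (adjusted p = 0.0772). C8g, a chain of the terminal complex, was called higher against MAL alone (log2 fold change 0.96, adjusted p = 0.039, beside 0.14 against CON), a call lost without any of the 5 MAL libraries, CON replicate 3, or MAL-BG replicate 2 or 5. The C8g call was also lost with offsets for length and GC content (0.66, adjusted p = 0.143), no filter on low counts (adjusted p = 0.0564), or thinning (adjusted p = 0.0878). Cfb, the alternative pathway protease factor B, was called lower against MAL alone (log2 fold change -0.77, adjusted p = 0.0163), and is named here after its value was seen.

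Regulators bound to membranes gave 1 higher and 5 lower of 12 tested against CON, beside 11.4% and 21.7% of all genes, and the 12 had a median of -1.22 on the log2 scale. Cr1l, the rodent regulator known as Crry that limits C3 deposition, was higher at 51.7 ± 4.6 CPM in CON and 50.5 ± 4.5 in MAL, beside 78.1 ± 10.9 in MAL-BG (log2 fold change 0.59 against CON, adjusted p = 6.48e-04, and 0.63 against MAL, adjusted p = 2.59e-04). It lay close to the fold threshold, and without CON replicate 1 or 2 or MAL-BG replicate 1 or 5 it was no longer called against CON (0.53 to 0.58). Upper-quartile scaling (0.578) or a minimum of 50 counts (0.548) also ended this call. Cd55, which speeds the decay of C3 convertases, was lower at 15.6 ± 6.9, 12.7 ± 6.5, and 4.55 ± 1.88 CPM (log2 fold change -1.77, adjusted p = 0.00125, and -1.48, adjusted p = 0.00324).

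The other regulators called lower against CON were Csmd1 (-2.99, adjusted p = 0.00145), Sez6 (-2.23, adjusted p = 0.0049), Susd4 (-1.44, adjusted p = 0.00773), and Cd46 (-1.27, adjusted p = 0.0127), each at a mean of 2.30 CPM or less in CON. Cd46 lost its call without CON replicate 2 (adjusted p = 0.0541) and was not called against MAL. Offsets for length and GC content with mean log2 CPM scaling also ended its call against CON (adjusted p = 0.0612). Susd4 lost its call against MAL without MAL replicate 2 or 5 or MAL-BG replicate 2, 4, or 7. Clu, which encodes clusterin, a soluble inhibitor of the terminal complex, was at 641 ± 266 CPM in CON and 556 ± 304 in MAL, beside 172 ± 99 in MAL-BG (log2 fold change -1.90, adjusted p = 0.00188, and -1.69, adjusted p = 0.00309).

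Markers of some cell types outside the myeloid lineage were also lower in MAL-BG, while those of others were not. Astrocyte markers, summed over 8 genes, were at 277 to 610 CPM in CON, 340 to 553 in MAL, and 147 to 257 in MAL-BG. Neuron markers, summed over 8 genes, were at 35.9 to 198, 62.6 to 161, and 14.4 to 60.9 CPM. Choroid plexus epithelium markers, summed over 7 genes, were at 10500 to 40700, 4900 to 32000, and 1460 to 12900 CPM. Oligodendrocyte markers, summed over 7 genes, did not fall, at 417 to 1070, 587 to 922, and 498 to 1220 CPM. Nor did those of endothelium and mural cells, summed over 9 genes, at 544 to 2100, 563 to 1490, and 1080 to 3540 CPM. The part of any of these cell types in the levels of Clu, Csmd1, Sez6, Susd4, Cd46, and Cd55 was not tested.

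**Figure D5:**
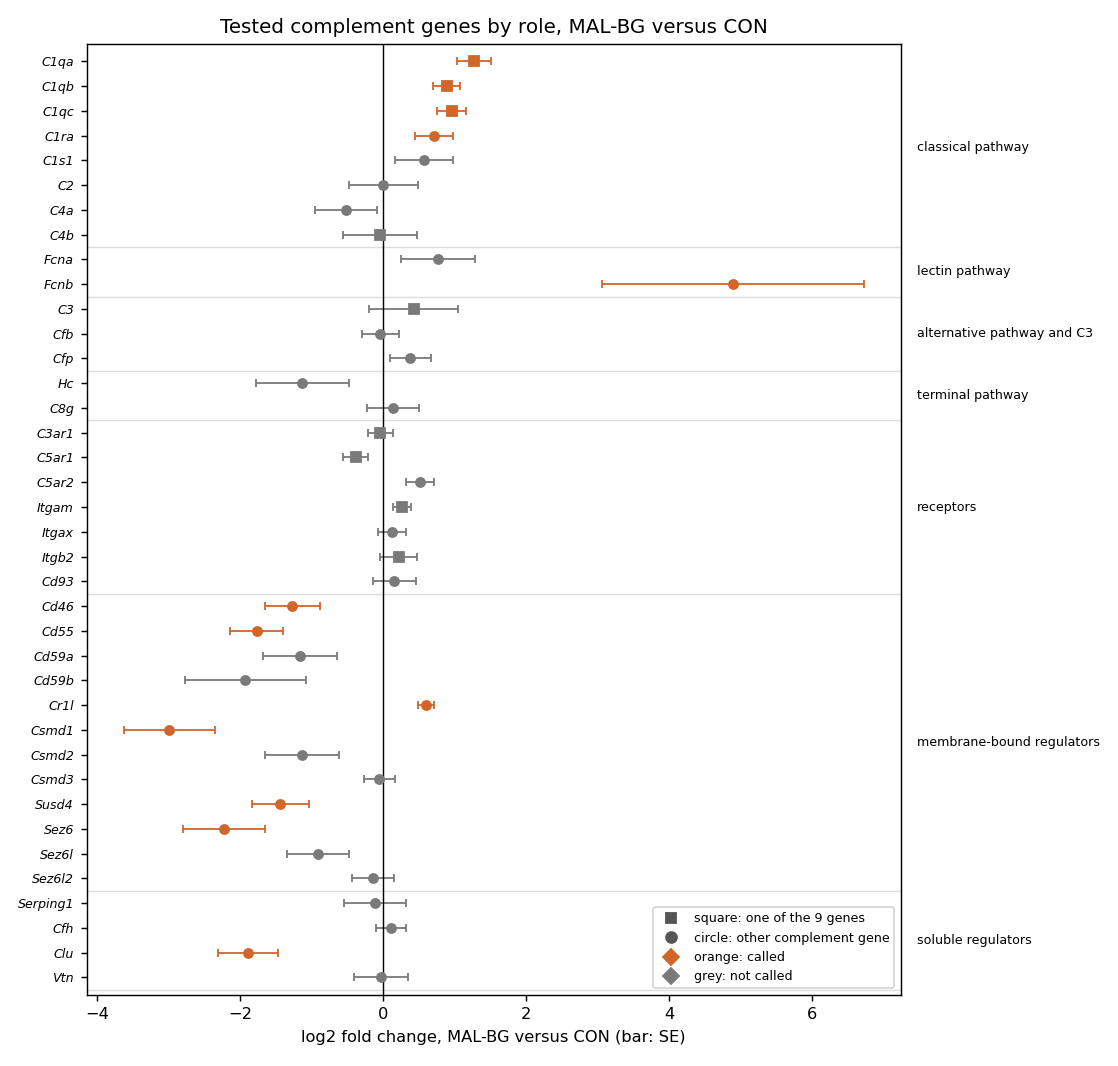
Log2 fold change with its SE of the 38 tested complement genes in MAL-BG against CON, grouped by role; squares are the 9 genes and orange marks called genes. The 3 C1q genes and C1ra are called higher in the classical pathway, none of the 7 receptors is called, and 5 of 12 membrane-bound regulators are called lower.

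Lists that bear on these genes were also read. Among 8 enzymes that modify or fold collagen-like chains, such as the stalk of C1q, 4 were called higher against CON and 3 against MAL, and none lower, beside 11.4% and 10.2% of all genes called higher. Plod1, a lysyl hydroxylase, rose from 148 CPM in CON to 264 in MAL-BG (log2 fold change 0.84, adjusted p = 3.92e-04), Colgalt1, a collagen galactosyltransferase, by 0.74 (adjusted p = 0.00305), P4ha1, a prolyl hydroxylase, by 0.66 (adjusted p = 0.00245), and Plod3 by 0.59 (adjusted p = 0.00503). Their median on the log2 scale was 0.58 against CON and 0.57 against MAL. Plod3 and P4ha1 lay close to the fold threshold: against CON, Plod3 was at 0.50 to 0.54 without CON replicate 2 or 4 or MAL-BG replicate 1, and P4ha1 at 0.54 without CON replicate 4, and neither was then called. Plod3 also lost its call without MAL replicate 1, 2, 3, or 5, with upper-quartile scaling, a minimum of 50 counts, or thinning (0.55 to 0.58). Offsets for length and GC content ended the P4ha1 calls against CON (0.575) and MAL (0.54). Its call against MAL was also lost without MAL replicate 3 or MAL-BG replicate 6, with upper-quartile scaling, or with a minimum of 50 counts (0.54 to 0.57).

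Among 13 partners and activators of the integrins, 2 were called lower and none higher in each comparison, no larger a share than that of all genes called lower (21.7% against CON and 20.2% against MAL). Tln1, which encodes talin and activates integrins from inside the cell, was at -0.65 against CON (adjusted p = 0.00278) and -0.65 against MAL (adjusted p = 0.00183). Its fold change fell short of the threshold against CON without MAL-BG replicate 2, 4, or 7 (-0.56 to -0.53), and offsets for gene length and GC content took it to -0.29 against CON and -0.33 against MAL. Itgal, the alpha chain of another CD18 integrin, was at -0.61 against CON (adjusted p = 0.043) and -1.24 against MAL (adjusted p = 3.93e-04). The Itgal call against CON was lost in the fits without CON replicate 3 or 4 or without any single MAL-BG library other than replicate 5, with log2 fold changes of -0.61 to -0.36. It was also lost with offsets for length and GC content (-0.50, or -0.24 with mean log2 CPM scaling added). So it was with no filter on low counts (adjusted p = 0.0533) and in an edgeR fit of MAL-BG and CON libraries alone (adjusted p = 0.0631).

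Among 13 signalling genes below the anaphylatoxin receptors, 2 were called higher against CON and 1 against MAL, and none lower, near the shares of all genes called higher (11.4% and 10.2%). Rgs2, which shortens G protein signals, was higher by 1.18 against CON (adjusted p = 3.37e-04) and 0.65 against MAL (adjusted p = 0.00984). Against MAL it fell below the fold threshold without MAL replicate 3 or 5, or with offsets for length and GC content (0.56). Gna15, a G protein alpha chain that couples to C5ar1, was higher by 0.68 against CON (adjusted p = 0.011), a call lost without CON replicate 2 or 4, and stood at 0.56 against MAL, just under the fold threshold.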

How the data were processed

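The table holds 16 libraries of CD11b-enriched brain cells, each from a mouse of its own: MAL-BG (n = 7), MAL (n = 5), and CON (n = 4). Per the labels and the methods, poly(A) stranded libraries were read in pairs, aligned to GRCm38.p6 with STAR, and counted per gene with HTSeq (version 2.5 in the submitters' processing notes), and the authors deposited raw counts, whole numbers with no normalization. The authors' test was DESeq2 with terms for batch and condition. Columns were matched to groups by name, with 0 columns left unused.

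Of 24421 genes, the 14565 above 10 counts in 4 or more libraries were kept and tested in 1 fit over all 16 libraries (edgeR 4.0.16, quasi-likelihood F-test, TMM scaling, R 4.3.3), with Benjamini-Hochberg adjustment over all genes tested. A call needed an adjusted p below 0.05 with a log2 fold change larger than 0.58 in either direction. Log2 ratios of counts within a library, with 0.5 added to each count, were compared by two-sided exact permutation tests (SciPy 1.17.1), which could not go below p = 0.00606 (MAL-BG against CON), 0.00253 (MAL-BG against MAL), and 0.0159 (MAL against CON). Exon lengths came from GENCODE vM21. The fit was tested on simulated data. No 2 libraries of a group agreed within sampling noise (smallest ratio of chi-square to degrees of freedom, 9.8).

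All 9 genes are described. Other complement genes were named when called in a MAL-BG comparison, at most 10 by the smallest p against CON. Of the 3 shorter lists, called genes were named. The 9 genes, the lists, and the tests were chosen with earlier results of these data known. The fits here have no batch term, since the batch of each column is not given in the sources used here. Alternatives were other scalings, DESeq2 1.42.0, offsets for gene length and GC content (known for 96.3% of genes), other filters, thinning to 10312703 counts, and leaving out each library.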

Additional observations from a re-analysis of the deposited data

Results flagged for a closer look

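Of 102 groups of libraries examined for a single far value (a gap to the nearest library above Dixon's 95% critical value), 8 were marked, and chance marks about 1 in 20. C3 in MAL-BG replicate 5 was at 152.2 CPM, beside 32.6 CPM in the next library, and the log2 ratio of C4b to C3 in the same library was -3.13. Fcnb in this library was at 82.3 CPM, beside 3.86 CPM in the next. C4b in MAL replicate 4 was at 98.0 CPM, beside 29.7 CPM in the next, and its log2 ratio of C4b to C3 was 1.91. The log2 ratio of C1qc to C1qb in CON replicate 1 was 0.14, above the other CON libraries, Clu in MAL-BG replicate 3 was at 379 CPM, and Fcnb in CON replicate 2 was at 1.67 CPM. No cause of these values was tested.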

How the results depend on the processing

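C1qa, C1qb, and C1qc remained called higher in both MAL-BG comparisons under every alternative other than scaling to microglia markers, with each library left out in turn included; there the log2 fold changes ran from 1.15 to 1.46 for C1qa, 0.79 to 1.01 for C1qb, and 0.85 to 1.14 for C1qc against CON. The count of members called was within 1.5 times of 3 under every other alternative. Scaling to microglia markers gave 5 called in each comparison, all lower, beside 11238 of 14565 genes called lower against CON and 10617 against MAL. It turned the sign against CON of C1qb (-0.15), C1qc (-0.07), C3 (-0.60), Itgam (-0.80), Itgb2 (-0.84), C1ra (-0.36), C8g (-0.96), Colgalt1 (-0.28), Cr1l (-0.48), Gna15 (-0.34), P4ha1 (-0.37), Plod1 (-0.21), and Plod3 (-0.45), and against MAL of C3ar1 (-0.88), Itgam (-0.73), Itgb2 (-0.93), C1ra (-0.33), Colgalt1 (-0.29), Cr1l (-0.34), Gna15 (-0.39), P4ha1 (-0.39), Plod1 (-0.17), Plod3 (-0.43), and Rgs2 (-0.28), and between MAL and CON of Itgam (-0.0636). Offsets for length and GC content turned C4b against CON (0.0582), C8g against CON (-0.113), Itgb2 against MAL (-0.107), and C1qa (0.0529) and C1qc (0.0313) between MAL and CON. With mean log2 CPM scaling added, they turned C3 against MAL (0.0406), C3ar1 against CON (0.0857), C4b against CON (0.256), C5ar1 against MAL (0.0302), and C1qa (0.0728), C1qb (0.011), and C1qc (0.0512) between MAL and CON, and the split of all calls moved from 1659 higher and 3161 lower to 3223 and 2362 against CON, and from 1479 and 2944 to 2970 and 2187 against MAL, with medians of all genes at 0.21 and 0.20. C5ar1 against MAL was 0.0142 with DESeq2 size factors or its test and 0.00286 with no filter, Itgb2 against MAL was -0.000427 with more than 50 counts in 4 libraries, and thinning gave C8g -0.0463 against CON and the C1qa to C1qc log2 ratio -0.001 between MAL and CON. With CON replicate 1, MAL replicate 4, and MAL-BG replicate 5 left out together, chosen after the data were seen, C3 (-0.69), C3ar1 (0.17), C4b (0.90), and C8g (-0.16) turned against CON, C4b (0.46) and C5ar1 (0.12) against MAL, and C1qa (0.0525) and C1qc (0.0498) between MAL and CON.

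Leaving out 1 library at a time, the sign turned for C1qa (-0.18 to 0.17), C1qb (-0.18 to 0.0585), C1qc (-0.18 to 0.16), C4b (-0.36 to 1.22), and Itgam (-0.0453 to 0.101) between MAL and CON, for C3 (-0.54 to 0.70), C3ar1 (-0.132 to 0.0654), C4b (-0.30 to 0.73), and C8g (-0.13 to 0.29) against CON, and for C3 (-1.13 to 0.0133), C3ar1 (-0.0176 to 0.195), C4b (-0.72 to 0.31), C5ar1 (-0.0921 to 0.0918), and Itgb2 (-0.0611 to 0.19) against MAL. The log2 ratio of C1qa to C1qc between MAL and CON ran from -0.00969 to 0.0211, and that of C4b to C3 from -1.0 to 0.452 between MAL and CON and from -0.18 to 1.10 between MAL-BG and CON. Apart from the shifts that each alternative makes by its own construction, the cause was not tested. No paired analysis was possible because the replicate numbers of the table's columns name no shared animal, litter, or day. Depth limits C8g, Cd46, Csmd1, Sez6, Susd4, and Fcnb, which were near or below 2.30 CPM in CON, whereas the 9 genes had enough counts in every library for the filter.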
